A study of Mus musculus with 3 samples.

Results

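The 54 genes described here code for the machinery of DNA replication and of mitosis in 3 mouse tumour cell lines, and for the cyclins, kinases and E2F factors that set the entry into S phase. They were chosen by gene symbol, and all 54 were listed in each of the 3 deposited tables, out of 15529 named genes in any table. Replication genes (23) and mitosis genes (21) were kept apart, and the 10 genes of the step from G1 into S phase were treated as a list of their own (G1/S regulators). The lines were the skin melanomas B16-F1 (strain C57BL/6J) and Cloudman S91 (strain DBA) and the mammary carcinoma 4T1 (strain BALB/cfC3H). All lines were grown in medium with 10% FBS, which was DMEM for the melanoma lines and RPMI for 4T1, and no treatment or engineered allele is named. Tumour type, mouse strain and medium therefore cannot be told apart when 4T1 is compared with the others, and strain differs between the melanoma lines. Each line gave 1 poly(A) RNA sequencing library, so no difference had a replicate check, and no test or p-value was possible.

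A cell that divides copies its genome in S phase and parts the copies in mitosis. Before S phase, the MCM proteins are loaded at origins as a ring-shaped helicase, and cyclin D with Cdk4 or Cdk6, then cyclin E with Cdk2, release the E2F factors that switch on replication genes. Mitosis genes are switched on later, in G2, by the B-Myb and FoxM1 proteins, and their messages are common readouts of how many cells in a culture are dividing. In bulk RNA, fewer dividing cells and less message per dividing cell cannot be told apart.

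Expected counts (estimated reads per gene) summed to 9098072 for B16-F1, with 7412840 for Cloudman S91 and 8968897 for 4T1. The 54 genes took 1.19% of these in B16-F1, 0.690% of these in Cloudman S91 and 0.864% of these in 4T1. The labelled cell types matched their markers. All 9 melanocyte markers reached 1 FPKM (fragments per kilobase of transcript, scaled to the reads of the library) in both melanoma lines, with summed levels of 10560 FPKM in B16-F1 and 9209 FPKM in Cloudman S91, while 2 of 9 did in 4T1 (summed level 7.08 FPKM), where Dct, Tyrp1, Mlana, Sox10, Pax3 and Slc45a2 were at 0. Of 10 epithelial and mammary markers, 1 reached 1 FPKM in B16-F1, 2 did in Cloudman S91 and all 10 did in 4T1, with summed levels of 1.97, 4.08 and 2238 FPKM. Of 8 listed markers of leukocytes, endothelium and red cells, 2 passed 1 FPKM in B16-F1, 2 passed it in Cloudman S91 and 0 passed it in 4T1, with summed levels of 8.31, 8.15 and 0.21 FPKM.

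In FPKM, replication and mitosis messages were most abundant in B16-F1 and least abundant in Cloudman S91 for most genes. B16-F1 had the highest FPKM of the 3 lines for 16 of 23 replication genes and 16 of 21 mitosis genes, against 33.9% of all 11944 named genes at 1 FPKM or more in a line. Cloudman S91 had the lowest FPKM for 16 of 23 replication genes and 18 of 21 mitosis genes, against 36.5% of all genes. After rescaling to TPM, in which every library has the same sum, it was lowest for 12 of 23 and 14 of 21. With the 50 most abundant genes left out of the TPM total, it was lowest for 11 of 23 and 14 of 21. In that setting 4T1 was lowest for 11 of 23 replication genes too. The share of all genes lowest in each line was not computed in TPM. No replication or mitosis gene was highest in Cloudman S91 in FPKM, against 24.8% of all genes. The G1/S regulators had no such order: 5 of 10 were highest in B16-F1, another 2 in Cloudman S91 and another 3 in 4T1. Of all 54 genes, 1 (Cdk4) was lowest in B16-F1, against 25.4% of all genes, and 15 were lowest in 4T1, against 38.1%, while another 15 were highest in 4T1, against 41.3%.

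**Figure D1:**
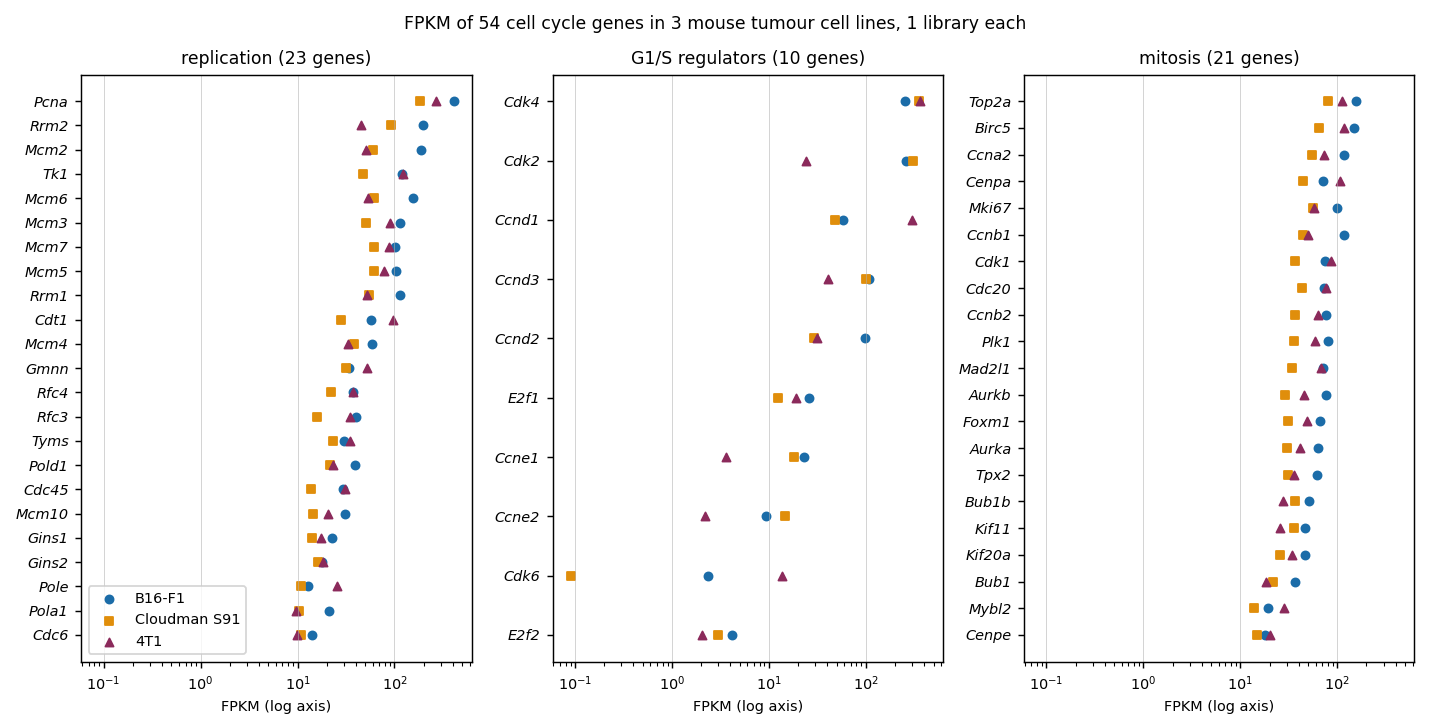
FPKM on a log axis for each gene (rows, by mean level) in the 3 libraries (circles B16-F1, squares Cloudman S91, triangles 4T1; 1 library each, no error bars). Replication and mitosis genes mostly show the circle at the right and the square at the left, while among the G1/S regulators Cdk2, Ccne1 and Ccne2 have the 4T1 triangle far to the left and Ccnd1 and Cdk6 have it far to the right.

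The median level of each of the 3 lists was above that of all genes in every line, while single genes lay under it. Among these were E2f2, at 4.17 FPKM in B16-F1, 2.99 FPKM in Cloudman S91 and 2.02 FPKM in 4T1, and Pola1 in 4T1, at 9.73 FPKM. The G1/S regulators had medians of 41.7 FPKM in B16-F1, 23.5 FPKM in Cloudman S91 and 21.6 FPKM in 4T1. The median mitosis gene stood at 71.7 FPKM in B16-F1, 35.4 FPKM in Cloudman S91 and 49.3 FPKM in 4T1, and the median replication gene at 39.7, 28.2 and 37.8 FPKM in the same order, against medians of 14.0, 13.0 and 13.4 FPKM for all genes at 1 FPKM or more. Within a library, the median mitosis gene was above the median replication gene by 0.85 on the log2 scale in B16-F1, by 0.33 in Cloudman S91 and by 0.39 in 4T1. Every replication and mitosis gene passed 1 FPKM in every line, and the only level under it among the 54 was Cdk6 in Cloudman S91.

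Differences between lines were taken in log2(FPKM + 1), over genes that reached 1 FPKM in either line of the pair, and a difference of 1 (2-fold on that scale) or 2 (4-fold) was used as a rule of size. The 3 comparisons share libraries and are not independent of each other. Between B16-F1 and Cloudman S91, 22 of 54 genes were at least 2-fold higher in B16-F1, against 10.9% of all 11133 genes compared, and 0 were at least 2-fold higher in Cloudman S91, against 9.11%. They were 10 of 23 replication genes, 2 of 10 G1/S regulators and 10 of 21 mitosis genes, and no gene passed 4-fold, against 2.33% of all genes higher in B16-F1 and 3.19% higher in Cloudman S91. The median difference was 0.98 for replication genes, 0.30 for G1/S regulators and 0.99 for mitosis genes, against 0.14 for all genes. By any amount, 51 of 54 genes were higher in B16-F1, against 58.9% of all genes, and 3 (Ccne2, Cdk2 and Cdk4) were higher in Cloudman S91, against 41.0%. All 23 replication genes and all 21 mitosis genes were higher in B16-F1 in FPKM, except that Gmnn and Gins2 changed sign under median-of-ratios and upper-quartile scaling and under TPM without the 50 most abundant genes. The 22 genes at least 2-fold higher in B16-F1 were 9 under median-of-ratios scaling and 8 in TPM without the 50 most abundant genes. Of all genes, 19.0% and 25.0% passed 2-fold in either direction in these settings. Of those, 42.4% and 37.8% were higher in B16-F1.

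Against 4T1, the median replication and mitosis genes were higher in B16-F1 and, in FPKM, lower in the other melanoma line. In B16-F1 minus 4T1, 11 of 54 genes were at least 2-fold higher in B16-F1, against 18.5% of all 11547 genes, and 2 were at least 2-fold higher in 4T1, against 18.9%. The share past 2-fold was thus close to the background for genes higher in B16-F1 and below it for genes higher in 4T1, while 39 of 54 were higher in B16-F1 by any amount, against 51.2%, and 15 were higher in 4T1, against 48.8%. The medians were 0.36 for replication, 1.08 for G1/S regulators and 0.45 for mitosis, against 0.03 for all genes. At 4-fold, 3 genes (Rrm2, Ccne1 and Cdk2) were higher in B16-F1, against 6.31% of all genes, and 2 (Ccnd1 and Cdk6) were higher in 4T1, against 7.43%.

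In Cloudman S91 minus 4T1, 5 of 54 genes were at least 2-fold higher in Cloudman S91, against 18.0% of all 11657 genes, and 9 were at least 2-fold higher in 4T1, against 22.5%. The medians were -0.50 for replication, 0.18 for G1/S regulators and -0.50 for mitosis, against -0.14 for all genes. At 4-fold, 3 genes (Ccne1, Ccne2 and Cdk2) were higher in Cloudman S91, against 7.47%, and 2 (Ccnd1 and Cdk6) were higher in 4T1, against 8.01%. By any amount, 15 of the 54 were higher in Cloudman S91 in FPKM, against 45.1% of all genes, and 39 were higher in 4T1, against 54.8%. In TPM the counts were 25 higher in Cloudman S91 and 29 higher in 4T1, since TPM raises Cloudman S91 over 4T1 by 0.40 for the median of all genes. The share of all genes higher in Cloudman S91 by any amount was not computed in TPM. In TPM the median of all genes was 0.26 and that of the 54 was -0.06, so the 54 still lay under all genes. The split of all genes past 2-fold also moved with the scaling, with 44.5% of them higher in Cloudman S91 in FPKM and 61.6% in TPM. The same share for B16-F1 over 4T1 was 49.5% in FPKM and 62.8% in TPM. For B16-F1 over Cloudman S91 it was 54.4% in FPKM and 42.4% under median-of-ratios scaling.

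**Figure D2:**
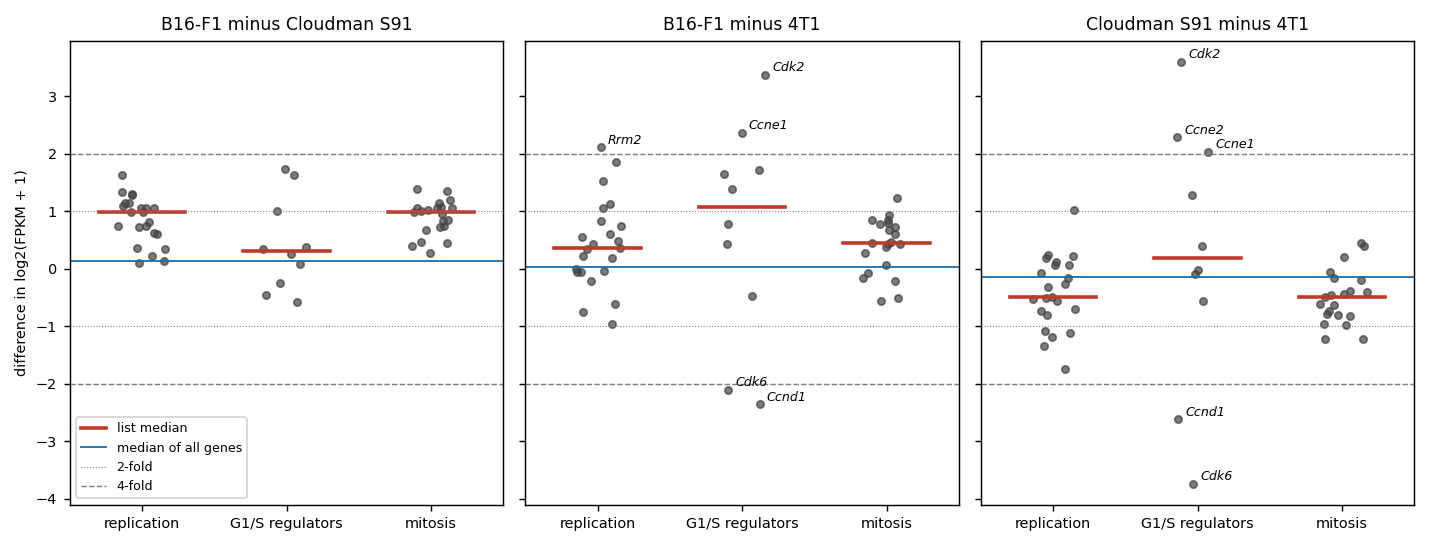
Difference in log2(FPKM + 1) for the 3 pairs of lines (panels); each point is 1 gene, red bars are list medians, the blue line is the median of all genes compared, and dotted and dashed lines mark 2-fold and 4-fold. The medians of replication and mitosis genes lie near 1 in the left panel (0.98 and 0.99), with single genes spread between 0.10 and 1.63, and the genes beyond 4-fold in the other panels are G1/S regulators, with Rrm2 in addition.

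The MCM2-7 ring is the helicase that unwinds DNA at the fork, and 2 of its 6 subunit genes set B16-F1 apart. Mcm2 stood at 188 FPKM in B16-F1, 60.1 FPKM in Cloudman S91 and 50.9 FPKM in 4T1. Mcm6 stood at 156 FPKM in B16-F1, 61.0 FPKM in Cloudman S91 and 53.5 FPKM in 4T1. Both were high in B16-F1 alone. The FPKM ratio of B16-F1 over Cloudman S91 was 3.13 for Mcm2 (95% interval 2.96 to 3.30) and 2.56 for Mcm6 (2.41 to 2.73), and that of B16-F1 over 4T1 was 3.69 for Mcm2 (3.49 to 3.91) and 2.93 for Mcm6 (2.75 to 3.11). These intervals cover counting error only.

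The other subunits were closer between B16-F1 and 4T1. Mcm3 stood at 115 FPKM in B16-F1, 51.4 FPKM in Cloudman S91 and 90.5 FPKM in 4T1, Mcm5 at 104, 61.7 and 77.2 FPKM, Mcm7 at 102, 61.0 and 87.1 FPKM, and Mcm4 at 58.9, 38.6 and 32.8 FPKM. The 6 subunits assemble in equal numbers, but their messages did not stand in equal amounts per length. The highest subunit was 3.19 times the lowest in B16-F1 (Mcm2 over Mcm4), 1.60 times in Cloudman S91 (Mcm5 over Mcm4) and 2.76 times in 4T1 (Mcm3 over Mcm4). Mcm4 was lowest in all 3 libraries, and these ratios within a library do not depend on scaling between libraries.

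**Figure D3:**
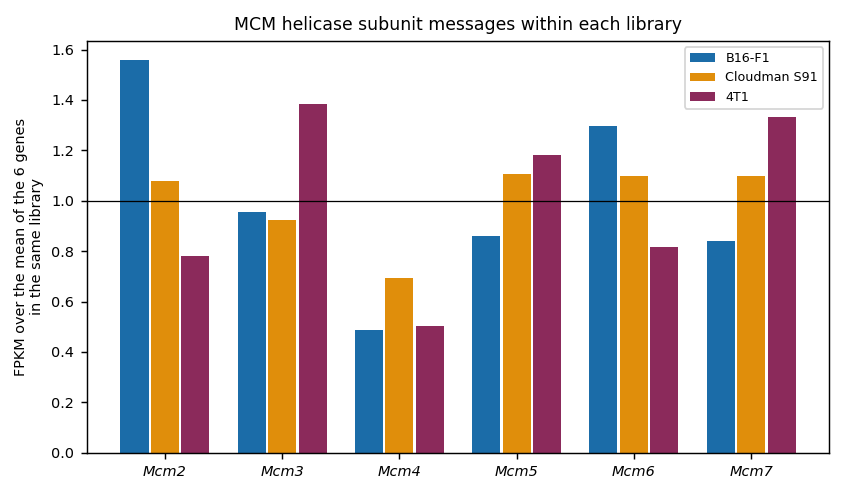
FPKM of each MCM helicase subunit gene divided by the mean of the 6 genes in the same library (bars from 0; B16-F1, Cloudman S91 and 4T1 from left to right; 1 library each, no error bars). Mcm2 and Mcm6 are above the mean of 1 in B16-F1 (1.56 and 1.30) and below it in 4T1 (0.780 and 0.818), and Mcm3 and Mcm7 are above it in 4T1 (1.39 and 1.33).

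Promoters of the members were read from the RefSeq table (GRCm38.p6, the build of mm10), which holds 41 of the 54 genes (18 replication, 7 G1/S, 16 mitosis). Its gene start is not always the outer end of the gene in the RefSeq gene table: 27 of the 41 genes had a window at that end, and the windows of the other 14 start inside the gene. Distances here are from the start in the promoter table, and 3 genes with more than 1 window were counted as holding a site when any window did, as were all other genes of the table. The 250 bases before each such start were searched on both strands for CCAAT, the box bound by NF-Y, for the E2F-type sites TTTCGCGC, TTTGGCGC, TTCCCGCC and GCGGGAAA, and for TTTGAA, the cell cycle homology region read by the DREAM and B-Myb complexes. TTTCGCGC and TTTGGCGC can overlap each other on opposite strands. At least 1 of the 4 E2F-type sites was found in 7 of 18 replication promoters (38.9%), 1 of 7 G1/S promoters (14.3%) and 1 of 16 mitosis promoters (6.25%), against 3.36% of all 27025 genes with a promoter in the table and 6.70% of the 9595 at 1 FPKM or more. The 7 were Mcm5, Mcm6, Mcm7, Rrm1, Cdc6, Pola1 and Rfc3, and in Mcm5, Mcm7, Cdc6 and Pola1 the start used lies 41, 228, 442 and 232 bases inside the gene. CCAAT was found in 12 of 18 replication promoters (66.7%), 3 of 7 G1/S promoters (42.9%) and 13 of 16 mitosis promoters (81.2%). The shares were 37.5% of all promoters and 41.2% of those at 1 FPKM or more. TTTGAA was found in 2 of 18 replication promoters (11.1%) and 6 of 16 mitosis promoters (37.5%), against 18.3% of all and 12.7% of those at 1 FPKM or more. A match of letters is a description and not a binding site.

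The helicase genes Mcm5 (plus strand, chr8:75109259-75109508) and Mcm6 (minus strand, chr1:128359706-128359955) are shown as replication genes with both kinds of site, with E2F-type sites and CCAAT boxes in capitals (ATTGG is CCAAT on the other strand, and a run such as TTTCGCGCCAAA holds both E2F-type sites).
Mcm5: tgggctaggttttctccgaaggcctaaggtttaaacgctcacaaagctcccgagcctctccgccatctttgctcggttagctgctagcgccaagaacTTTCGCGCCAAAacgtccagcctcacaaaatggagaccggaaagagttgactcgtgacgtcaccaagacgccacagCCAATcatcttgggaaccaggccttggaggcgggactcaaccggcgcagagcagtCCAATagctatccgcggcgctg
Mcm6: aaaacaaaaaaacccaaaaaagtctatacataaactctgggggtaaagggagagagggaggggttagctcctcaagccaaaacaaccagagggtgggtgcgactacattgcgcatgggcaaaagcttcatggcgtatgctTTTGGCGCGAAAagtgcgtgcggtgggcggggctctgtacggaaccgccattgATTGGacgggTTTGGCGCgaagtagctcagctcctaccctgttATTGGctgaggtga
In Mcm5 the joined E2F-type sites begin 153 bases before the start in the promoter table, which is 41 bases inside the gene. In Mcm6 they begin 110 bases before it, and a further TTTGGCGC lies 47 bases before it.

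For the clamp, the clamp loader and the helicase activators, Cloudman S91 was the lowest library. Pcna, the sliding clamp that tethers DNA polymerases, was the most abundant replication message, at 409 FPKM in B16-F1, 185 FPKM in Cloudman S91 and 268 FPKM in 4T1. Mcm10, which helps activate the helicase, stood at 31.1 FPKM in B16-F1, 14.4 FPKM in Cloudman S91 and 20.9 FPKM in 4T1. Cdc45, a partner of the active helicase, stood at 29.6, 13.8 and 30.9 FPKM in the same order of lines. For Pcna and Mcm10, B16-F1 also stood above 4T1. The deposited length of Mcm10 was 3513 bases for B16-F1 and 4288 bases for 4T1. Its ratio was 1.49 in FPKM and 1.22 in counts scaled to the library total. Rfc3, a subunit of the clamp loader, stood at 39.7 FPKM in B16-F1, 15.8 FPKM in Cloudman S91 and 34.7 FPKM in 4T1, a ratio of 2.51 for B16-F1 over Cloudman S91 (2.07 to 3.07). B16-F1 and 4T1 did not differ beyond counting error for Cdc45 and Rfc3. Cdc6, which loads the helicase with ORC, was the least abundant replication message on average, at 14.1 FPKM in B16-F1, 10.8 FPKM in Cloudman S91 and 9.82 FPKM in 4T1.

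The licensing factor Cdt1 and the polymerase gene Pole were highest in 4T1. Cdt1, which brings MCM to origins, stood at 56.9 FPKM in B16-F1, 28.2 FPKM in Cloudman S91 and 97.3 FPKM in 4T1, and 4T1 was above Cloudman S91 by 3.45 times (3.12 to 3.83). Gmnn, whose protein geminin blocks Cdt1, stood at 33.7 FPKM in B16-F1, 31.4 FPKM in Cloudman S91 and 51.8 FPKM in 4T1. Per length, the Gmnn message was 0.592 of the Cdt1 message in B16-F1 (0.519 to 0.675), 1.12 of it in Cloudman S91 (0.946 to 1.31) and 0.533 of it in 4T1 (0.479 to 0.592), so Cloudman S91 stood apart. Pole, the catalytic subunit of the leading-strand polymerase, stood at 12.8 FPKM in B16-F1, 10.8 FPKM in Cloudman S91 and 25.8 FPKM in 4T1. The deposited length of Pole was 7167 bases in both melanoma tables and 4526 bases in the 4T1 table, and 4T1 was above Cloudman S91 by 2.39 times in FPKM but by 1.50 times in counts scaled to the library total. Pola1, the catalytic subunit of the priming polymerase, stood at 21.3 FPKM in B16-F1, 10.3 FPKM in Cloudman S91 and 9.73 FPKM in 4T1, high in B16-F1 alone.

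Nucleotide supply split by enzyme. Rrm1, the large subunit of ribonucleotide reductase, stood at 114 FPKM in B16-F1, 54.1 FPKM in Cloudman S91 and 51.5 FPKM in 4T1. Rrm2, its small subunit, stood at 197 FPKM in B16-F1, 92.2 FPKM in Cloudman S91 and 44.9 FPKM in 4T1, and was the only replication gene past 4-fold in FPKM, with a ratio of B16-F1 over 4T1 of 4.40 (4.08 to 4.74). In TPM, Mcm2 passed 4-fold for the same pair, with a log2 difference of 2.19. Per length, Rrm2 exceeded Rrm1 in B16-F1 (1.73; 1.66 to 1.81) and in Cloudman S91 (1.70; 1.59 to 1.83) but not in 4T1 (0.871; 0.802 to 0.945). The enzymes of thymidine supply had another order. Tk1, thymidine kinase, stood at 118 FPKM in B16-F1, 47.6 FPKM in Cloudman S91 and 122 FPKM in 4T1, low in Cloudman S91 alone, and Tyms, thymidylate synthase, at 30.0, 23.4 and 35.0 FPKM in the same order of lines. The remaining replication genes (Gins1, Gins2, Pold1 and Rfc4) lay between 14.2 and 39.1 FPKM and passed 2-fold in no comparison.

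Among mitosis genes, the A-type and B-type cyclins that drive entry into mitosis were highest in B16-F1. Ccnb1, cyclin B1, the partner of Cdk1, stood at 117 FPKM in B16-F1, 44.1 FPKM in Cloudman S91 and 49.3 FPKM in 4T1, and was the only mitosis gene at least 2-fold higher in B16-F1 than in both other lines in FPKM. Its ratio was 2.65 over Cloudman S91 (2.44 to 2.89) and 2.37 over 4T1 (2.20 to 2.56). A row without a symbol but described as Ccnb1 stood at 6.11 FPKM in B16-F1, 1.53 FPKM in Cloudman S91 and 0 in 4T1, and was not added to the gene. Ccnb1, Ccnb2, Pcna, Tyms and Ccnd3 also have pseudogene copies in the mouse annotation, and how the counting shared reads among copies was not given in the labels. Ccnb2, cyclin B2, stood at 77.2 FPKM in B16-F1, 36.7 FPKM in Cloudman S91 and 63.6 FPKM in 4T1. Per length, Ccnb1 exceeded Ccnb2 in B16-F1 (1.52; 1.41 to 1.63) and Cloudman S91 (1.20; 1.06 to 1.36) and was below it in 4T1 (0.776; 0.707 to 0.851). Ccna2, cyclin A2, stood at 117 FPKM in B16-F1, 55.2 FPKM in Cloudman S91 and 72.8 FPKM in 4T1.

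Cdk1, the kinase of mitosis, had another order, at 74.2 FPKM in B16-F1, 36.6 FPKM in Cloudman S91 and 86.4 FPKM in 4T1, so that Cloudman S91 was low and the others were close. Plk1, a kinase of the centrosome and spindle, stood at 79.8 FPKM in B16-F1, 35.4 FPKM in Cloudman S91 and 59.1 FPKM in 4T1. The aurora kinases showed the same order. Aurka, the spindle pole kinase, stood at 63.2 FPKM in B16-F1, 30.1 FPKM in Cloudman S91 and 41.4 FPKM in 4T1, and Aurkb, the kinase of the chromosomal passenger complex, at 75.7, 29.1 and 45.5 FPKM, a ratio of 2.60 for B16-F1 over Cloudman S91 (2.33 to 2.91). Birc5, survivin, a partner of Aurkb in that complex, stood at 150.1 FPKM in B16-F1, 65.2 FPKM in Cloudman S91 and 116 FPKM in 4T1. Mad2l1, which holds back anaphase at the spindle checkpoint, stood at 70.5, 34.1 and 67.6 FPKM in the same order of lines. The B16-F1 and 4T1 levels of Mad2l1 did not differ beyond counting error in FPKM, at a ratio of 1.04. Its deposited length was 1725 bases in the melanoma tables and 1437 bases in the 4T1 table. In counts scaled to the library total, B16-F1 was 1.27 times 4T1.

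The factors that switch mitosis genes on differed in order from each other. Foxm1 stood at 66.3 FPKM in B16-F1, 31.0 FPKM in Cloudman S91 and 48.1 FPKM in 4T1. Mybl2, which codes for B-Myb, stood at 19.3 FPKM in B16-F1, 13.7 FPKM in Cloudman S91 and 28.0 FPKM in 4T1, highest in 4T1. Cenpa, the histone of the centromere, was likewise highest in 4T1, at 71.7 FPKM in B16-F1, 44.7 FPKM in Cloudman S91 and 106 FPKM in 4T1, and was 2.37 times higher in 4T1 than in Cloudman S91 (2.13 to 2.65). Top2a, the topoisomerase that untangles chromosomes, was the most abundant mitosis message on average, at 156 FPKM in B16-F1, 79.7 FPKM in Cloudman S91 and 113 FPKM in 4T1. Cenpe, a motor of the kinetochore, was the least abundant on average, at 18.0, 14.8 and 20.4 FPKM. Top2a, Cenpe and Mybl2 were among the 10 mitosis genes that passed 2-fold in no comparison, with Mki67, Bub1, Bub1b, Cdc20, Kif11, Kif20a and Tpx2. Mki67, the proliferation antigen Ki-67, named here for its wide use and not by the rule for named genes, stood at 99.3 FPKM in B16-F1, 55.6 FPKM in Cloudman S91 and 57.7 FPKM in 4T1. Only the checkpoint kinase genes Bub1 and Bub1b and the spindle motor gene Kif11 were lowest in 4T1 in FPKM among the mitosis genes.

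The promoters of Cdk1 (minus strand, chr10:69352913-69353162), Ccnb2 (minus strand, chr9:70421555-70421804) and Top2a (minus strand, chr11:99024190-99024439) are shown as mitosis genes with several boxes, with CCAAT (also as ATTGG) and TTTGAA (also as TTCAAA) in capitals. Cdk1 also holds an E2F-type TTTCGCGC, and in Top2a CACATG, which is the other strand of a motif described with Cdk2, is in capitals too.
Cdk1: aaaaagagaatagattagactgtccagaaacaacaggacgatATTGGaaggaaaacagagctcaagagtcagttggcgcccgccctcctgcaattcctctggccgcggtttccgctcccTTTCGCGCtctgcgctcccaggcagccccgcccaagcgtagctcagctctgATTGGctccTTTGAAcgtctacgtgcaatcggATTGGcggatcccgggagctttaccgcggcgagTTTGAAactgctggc
Ccnb2: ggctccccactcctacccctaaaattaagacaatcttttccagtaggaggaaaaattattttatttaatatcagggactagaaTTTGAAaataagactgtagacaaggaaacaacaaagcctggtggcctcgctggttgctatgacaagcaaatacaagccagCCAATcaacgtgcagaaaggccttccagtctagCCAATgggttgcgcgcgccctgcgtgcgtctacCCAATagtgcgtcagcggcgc
Top2a: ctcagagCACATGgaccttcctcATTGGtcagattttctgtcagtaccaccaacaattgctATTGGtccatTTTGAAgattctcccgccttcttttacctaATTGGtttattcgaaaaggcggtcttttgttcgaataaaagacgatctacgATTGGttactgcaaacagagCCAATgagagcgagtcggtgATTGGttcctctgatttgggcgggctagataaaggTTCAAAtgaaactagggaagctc
At least 2 CCAAT boxes were found in 9 of 16 mitosis promoters (56.2%) and 6 of 18 replication promoters (33.3%), against 11.5% of all promoters and 15.7% of those at 1 FPKM or more. Top2a held 6, and Cdk1 and Ccnb2 held 3 each. The TTTGAA nearest to the gene start lay 15 bases before it in Cdk1, 23 bases in Top2a (whose start here is 10 bases inside the gene) and 167 bases in Ccnb2.

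The G1/S regulators held the largest differences between lines. The D-type cyclins, which bind Cdk4 and Cdk6, were used in different proportions. Ccnd1 (chr7:144929931-144939831) stood at 57.6 FPKM in B16-F1, 48.0 FPKM in Cloudman S91 and 300.1 FPKM in 4T1, so that 4T1 was 5.21 times above B16-F1 (4.97 to 5.48) and 6.25 times above Cloudman S91 (5.91 to 6.63). Ccnd2 stood at 99.0 FPKM in B16-F1, 29.1 FPKM in Cloudman S91 and 31.2 FPKM in 4T1, high in B16-F1 alone, with a ratio of 3.40 over Cloudman S91 (3.19 to 3.62) and 3.18 over 4T1 (3.001 to 3.36). Ccnd3 stood at 108 FPKM in B16-F1, 101 FPKM in Cloudman S91 and 40.7 FPKM in 4T1, low in 4T1 alone. Of the summed FPKM of the 3 genes, Ccnd1 made up 21.8% of it in B16-F1, 26.9% of it in Cloudman S91 and 80.7% of it in 4T1, and Ccnd3 40.8%, 56.8% and 10.95%. Per length, Ccnd1 was 0.534 of Ccnd3 in B16-F1, 0.474 of it in Cloudman S91 and 7.37 times it in 4T1, and this order does not depend on scaling between libraries.

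The E-type cyclins, which bind Cdk2, were low in 4T1. Ccne1 (chr7:38097984-38107490) stood at 23.1 FPKM in B16-F1, 17.9 FPKM in Cloudman S91 and 3.65 FPKM in 4T1. Ccne2 (chr4:11190433-11204779) stood at 9.40 FPKM in B16-F1, 14.6 FPKM in Cloudman S91 and 2.18 FPKM in 4T1. Summed, they reached 32.5 FPKM in each melanoma line and 5.83 FPKM in 4T1. The ratio of B16-F1 over 4T1 was 6.33 for Ccne1 (4.86 to 8.37) and 4.31 for Ccne2 (3.23 to 5.84), and that of Cloudman S91 over 4T1 was 4.92 for Ccne1 (3.73 to 6.57) and 6.69 for Ccne2 (5.05 to 9.01). In log2(FPKM + 1) these differences depend on the number added, and with 5 in place of 1 neither gene passed 4-fold. The transcription factor genes were closer together. E2f1 stood at 25.9 FPKM in B16-F1, 12.5 FPKM in Cloudman S91 and 18.9 FPKM in 4T1. E2f2, the least abundant G1/S regulator on average, stood at 4.17, 2.99 and 2.02 FPKM, so E2f1 was the more abundant per length in every line.

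The kinases gave the widest range. Cdk4 was the most abundant of the G1/S messages on average and stayed within 2-fold in every comparison, at 256 FPKM in B16-F1, 350 FPKM in Cloudman S91 and 358 FPKM in 4T1. Cdk6 (chr5:3341004-3531008), which binds the same cyclins, stood at 2.38 FPKM in B16-F1, 0.09 FPKM in Cloudman S91 (8 counts) and 13.6 FPKM in 4T1. Its ratio of B16-F1 over Cloudman S91 was 26.4 (13.2 to 61.9), past 2-fold in log2(FPKM + 1) and past 4-fold with 0.1 in place of 1. It was 5.71 times higher in 4T1 than in B16-F1 (4.98 to 6.56), and the interval of the ratio of 4T1 over Cloudman S91 ran from 76.4 to 350.2. Cdk4 made up 99.1% of the summed Cdk4 and Cdk6 FPKM in B16-F1, nearly all (99.97%) in Cloudman S91 and 96.4% in 4T1.

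Cdk2, the partner of cyclins E and A in S phase, had the largest difference of all 54 genes in B16-F1 minus 4T1 in FPKM, and the largest of those higher in Cloudman S91 than in 4T1. It stood at 260 FPKM in B16-F1, 307 FPKM in Cloudman S91 and 24.3 FPKM in 4T1. The ratio over 4T1 was 10.7 for B16-F1 (9.81 to 11.7) and 12.6 for Cloudman S91 (11.6 to 13.8), or 9.78 and 11.5 in counts scaled to the library total. Set against another kinase of the same library, Cdk2 was 3.51 times Cdk1 per length in B16-F1 (3.33 to 3.70), 8.40 times in Cloudman S91 (7.78 to 9.07) and 0.282 of it in 4T1 (0.256 to 0.309). Cdk2 was close to Cdk4 per length in B16-F1 (1.02; 0.974 to 1.06) and in Cloudman S91 (0.878), and 0.0679 of it in 4T1. The difference in Cdk2 between either melanoma line and 4T1 stayed past 3 in log2 under each pseudocount and scaling tried, between 3.18 and 4.06. These settings cannot remove reads of the overlapping gene Pmel, described below, if any were counted to Cdk2.

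**Figure D4:**
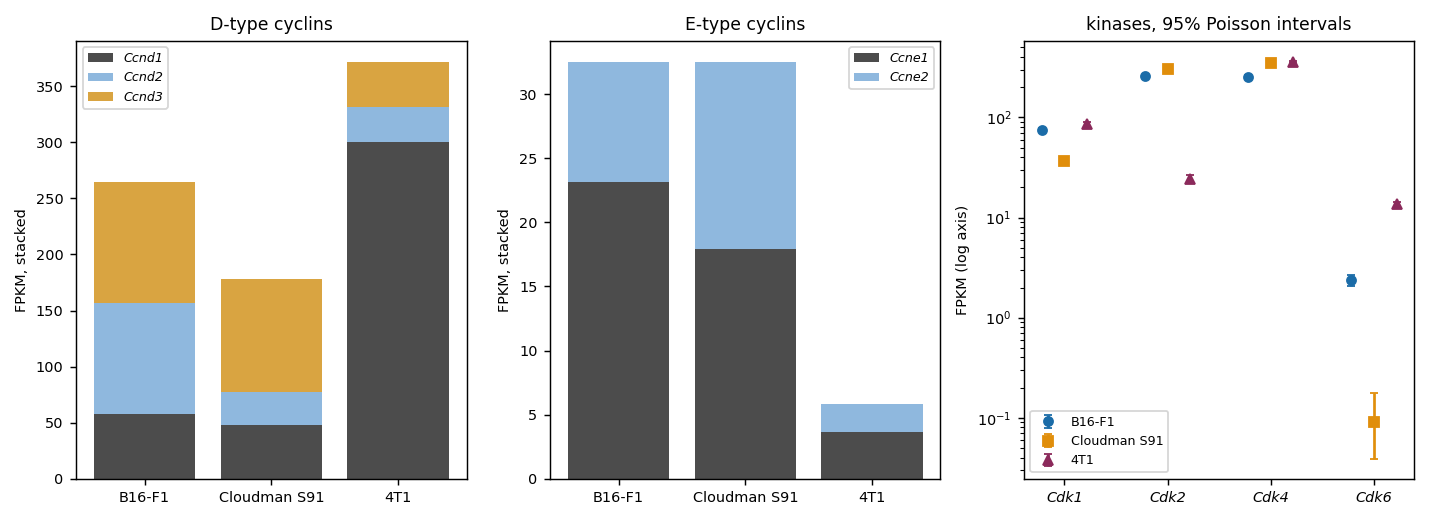
Stacked FPKM of the D-type cyclins (left) and E-type cyclins (middle) by line, and FPKM of 4 cyclin-dependent kinases on a log axis (right), with exact 95% Poisson intervals that cover counting error only. 4T1 has the Ccnd1 bar of 300.1 FPKM, the smallest E-type sum (5.83 FPKM) and the only low Cdk2 point (24.3 FPKM).

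Cdk2 (RefSeq GRCm38.p6, minus strand, chr10:128697938-128705051) lies beside Pmel, the melanosome fibril gene on the plus strand. In human melanocytes and melanoma, MITF, the melanocyte lineage factor, is known to regulate CDK2 as well as PMEL. Whether MITF does so in these lines was not tested. Pmel stood at 2676 FPKM in B16-F1, 2291 FPKM in Cloudman S91 and 0.11 FPKM in 4T1. RefSeq draws Pmel from 128695888 to 128720238, across the whole of Cdk2; in GENCODE M21 the coding transcripts of the genes share 0 exon bases and all their transcripts share 34. The RefSeq exons of the genes were not compared, and the counting is not stated to use strand. The part of Pmel reads in the Cdk2 values was not tested. Of the 10 nearest measured neighbours, Erbb3, a receptor tyrosine kinase, and Pmel were at least 4-fold higher in each melanoma line than in 4T1. Of all genes, 6.31% were so in B16-F1 and 7.47% in Cloudman S91. Erbb3 stood at 23.1 FPKM in B16-F1, 84.2 FPKM in Cloudman S91 and 1.30 FPKM in 4T1. The median over the 10 neighbours was -0.23 for B16-F1 minus 4T1, while Cloudman S91 minus 4T1 gave 0.64.

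**Figure D5:**
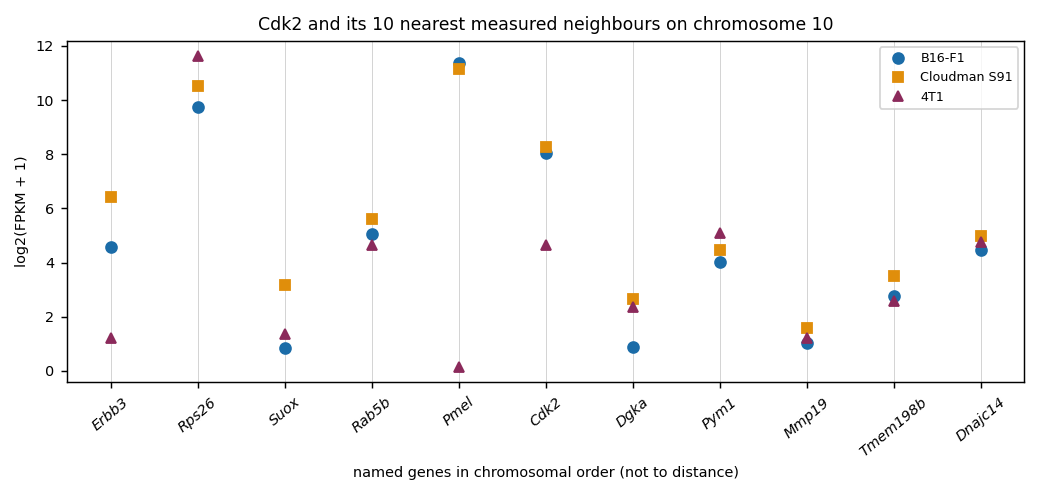
log2(FPKM + 1) of Cdk2 and its 10 nearest measured named neighbours on mouse chromosome 10, in chromosomal order and not to distance (circles B16-F1, squares Cloudman S91, triangles 4T1; 1 library each). The 4T1 triangle lies far under both melanoma points for Erbb3, Pmel and Cdk2, and Rab5b beside Pmel has its 3 points close together.

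The promoters of Cdk2 (minus strand, chr10:128705052-128705301) and Cdk4 (plus strand, chr10:127063285-127063534) are shown because the messages of these kinases stood at like levels to each other in the melanoma lines and not in 4T1. After the values were seen, the windows were also searched for CACGTG and CATGTG, the E-box letters read by MITF and Myc proteins. The capitals mark GCGGGAAA and CCAAT in Cdk2 and CACGTG in Cdk4.
Cdk2: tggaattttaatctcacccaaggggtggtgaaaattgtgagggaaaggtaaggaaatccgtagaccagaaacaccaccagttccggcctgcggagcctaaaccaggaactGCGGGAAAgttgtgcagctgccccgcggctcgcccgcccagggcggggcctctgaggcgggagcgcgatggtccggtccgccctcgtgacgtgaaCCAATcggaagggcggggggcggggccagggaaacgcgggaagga
Cdk4: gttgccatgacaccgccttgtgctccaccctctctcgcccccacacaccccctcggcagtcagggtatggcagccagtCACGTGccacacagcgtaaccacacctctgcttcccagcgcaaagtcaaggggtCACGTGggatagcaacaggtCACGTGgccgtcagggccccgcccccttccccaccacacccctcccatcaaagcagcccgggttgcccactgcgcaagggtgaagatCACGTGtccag
Cdk2 held a GCGGGAAA 140 bases and a CCAAT 45 bases before the gene start, and neither E-box in these 250 bases. Cdk4 held 4 CACGTG. Of the 41 members with a promoter, 3 held CACGTG (7.32%) and 4 held CATGTG (9.76%), near the shares of all genes. Of all promoters, 6.86% held CACGTG and 13.8% held CATGTG, and of those at 1 FPKM or more the shares were 10.2% for CACGTG and 8.94% for CATGTG. At least 2 CACGTG were found in 1 of the 41 members (2.44%), against 0.5% of all promoters and 1.02% of those at 1 FPKM or more.

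None of the 6 measured neighbours of Ccnd1, the 10 of Ccne1 or the 5 of Cdk6 passed 4-fold where the gene itself did against 4T1. Of all genes, 6.31% passed 4-fold higher in B16-F1 and 7.43% higher in 4T1, and for Cloudman S91 and 4T1 7.47% and 8.01% did. A count of 0 among so few neighbours is near these shares. At 2-fold in B16-F1 minus 4T1, Pop4 (1.99) and Plekhf1 (-1.92) beside Ccne1 went opposite ways. Beside Ccnd1, Fadd (1.29) and Ano1 (-1.73) did so too. The medians of the neighbours for B16-F1 minus 4T1 were 0.49 beside Ccnd1, 0.32 beside Ccne1 and -0.16 beside Cdk6. Beside Rrm2, 3 of 10 neighbours were at least 4-fold higher in B16-F1 than in 4T1, and beside Ccne2, 1 of 10 was at least 4-fold higher in Cloudman S91 and 1 in 4T1.

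Further genes of the same processes were mostly higher in B16-F1 than in Cloudman S91 too in FPKM, 52 of 55 other replication genes and 73 of 77 other mitosis genes, against 58.9% of all genes. At least 2-fold higher in B16-F1 were 9 of the replication genes, with a list median of 0.46, and 14 of the mitosis genes, with a list median of 0.59, against 10.9% of all genes. At least 2-fold higher in Cloudman S91 were 0 genes of either list, against 9.11% of all genes. Against 4T1, B16-F1 had 9 replication and 12 mitosis genes at least 2-fold higher, near or under the 18.5% of all genes, and 3 and 2 at least 2-fold lower, against 18.9%. Cloudman S91 had 1 replication and 2 mitosis genes at least 2-fold higher than 4T1, against 18.0% of all genes, and 9 and 13 at least 2-fold lower, against 22.5%. Past 4-fold in B16-F1 minus 4T1 were Rpa1, which coats single-stranded DNA (128 FPKM in B16-F1, 62.9 FPKM in Cloudman S91 and 29.6 FPKM in 4T1), and the kinetochore genes Casc5 (14.6 FPKM in B16-F1, 9.91 FPKM in Cloudman S91 and 2.60 FPKM in 4T1) and Spc25 (49.4 FPKM in B16-F1, 25.4 FPKM in Cloudman S91 and 11.4 FPKM in 4T1). These were 1 of 55 replication genes and 2 of 77 mitosis genes, against 6.31% of all genes. Past 4-fold higher in 4T1 than in either melanoma line was Pold4, a small subunit of polymerase delta. It stood at 5.11 FPKM in B16-F1, 5.96 FPKM in Cloudman S91 and 27.9 FPKM in 4T1. Cks1b, a small partner of the cyclin-dependent kinases, stood at 101 FPKM in B16-F1, 64.9 FPKM in Cloudman S91 and 267 FPKM in 4T1, and passed 4-fold against Cloudman S91. Past 4-fold higher in 4T1 were thus 1 of 55 replication genes over B16-F1, against 7.43% of all genes. Over Cloudman S91, 1 of 55 replication genes and 1 of 77 mitosis genes were so, against 8.01%.

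The genes of the RB, E2F and DREAM regulators had medians near that of all genes, at 0.08, 0.10 and -0.12 for B16-F1 minus Cloudman S91, B16-F1 minus 4T1 and Cloudman S91 minus 4T1. Of 28 genes compared between the melanoma lines, 1 was at least 2-fold higher in B16-F1, against 10.9% of all genes, and 3 were in Cloudman S91, against 9.11%. Of 27 compared between B16-F1 and 4T1, 2 were at least 2-fold higher in each line, against 18.5% of all genes for B16-F1 and 18.9% for 4T1. Of 28 compared between Cloudman S91 and 4T1, 3 were so in Cloudman S91, against 18.0% of all genes, and 4 were in 4T1, against 22.5%. Rbl2, the pocket protein p130 of DREAM, stood at 17.2 FPKM in B16-F1, 10.7 FPKM in Cloudman S91 and 3.24 FPKM in 4T1. Myc, a driver of growth and of S phase entry, stood at 38.5 FPKM in B16-F1, 101 FPKM in Cloudman S91 and 384 FPKM in 4T1, a step between each pair of lines. Of the inhibitors of these kinases, Cdkn1a stood at 63.5 FPKM in B16-F1, 36.7 FPKM in Cloudman S91 and 8.09 FPKM in 4T1, Cdkn1b at 23.5, 22.3 and 15.2 FPKM, Cdkn2c at 28.7, 27.0 and 48.1 FPKM, and Cdkn2d at 34.5, 21.9 and 13.3 FPKM. Cdkn1c was at 1.29 and 1.09 FPKM in B16-F1 and Cloudman S91, and Cdkn2a and Cdkn2b were at 29.0 and 4.84 FPKM in Cloudman S91, and all 3 genes were taken as 0 in the remaining lines, whose tables do not list them.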

How the data were processed

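Each deposited table gives, for every gene, its expected count, FPKM and length, per the file headers. Expected counts are the authors' estimated reads, not normalised, and the authors' FPKM values are close to counts divided by the listed length and the table's count total, at a median of 1.02 times that value in each line over rows with 100 counts or more. The length they imply is shorter than the listed one by a median of 49.3 bases in B16-F1, 48.3 bases in Cloudman S91 and 63.0 bases in 4T1, which raises the FPKM of short genes most. The submitters' processing notes name HISAT, StringTie and mm10; the counting program and its use of strand are not given in the sources used here. Rows with no symbol were left out; they held 2.36% of the counts of B16-F1, 2.24% of those of Cloudman S91 and 4.32% of those of 4T1. Genes absent from a table were taken as 0.

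Differences were taken in log2(FPKM + 1), which understates the folds of low genes, for genes that reached FPKM 1 in either line of the pair. With 1 library per line no test was run. Intervals are exact at 95% from rounded expected counts (Poisson for a level, conditional binomial for a ratio); they leave out all error but counting error, and PCR copies are not independent molecules. Positions and promoters are from RefSeq GRCm38.p6, and the overlap of Cdk2 with Pmel was also read from GENCODE M21.

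The members and lists were chosen with earlier results of these data known. Named with values in each line are genes past 2-fold in any comparison, the highest and lowest of each list, the families compared within a library, the kinase inhibitors, and from the wider lists up to 2 genes past 4-fold in each direction. The alternatives were pseudocounts of 0.1 and 5, no filter or FPKM 5, TPM (also with the 50 most abundant genes left out of its total), upper-quartile and median-of-ratios scaling, counts scaled to the library total, leaving out genes of differing length, and an 8-fold rule. Python 3.11.15, pandas 2.3.3 and scipy 1.17.1 were used.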

Additional observations from a re-analysis of the deposited data

How the results depend on the processing

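No paired analysis was possible because each line gave 1 library and no test was run. Of 153 recomputed medians over that of all genes and counts of calls, 134 stayed and 19 moved (4 medians and 15 counts). A median stayed when it moved by no more than the counting half-width of its middle gene or genes. A count stayed when it was within 1.5 times the first count. Of the medians 0 reversed sign beyond that half-width, and a count could not reverse under this rule. For B16-F1 minus Cloudman S91, the 22 genes past 2-fold were 14 with a pseudocount of 5, 8 in TPM without the 50 most abundant genes, 9 under median-of-ratios scaling and 11 under upper-quartile scaling, and the 0 past 4-fold were 1 (Cdk6) with a pseudocount of 0.1, in TPM, in TPM without the 50 most abundant genes and in counts scaled to the library total. For B16-F1 minus 4T1, the 13 genes past 2-fold were 22 in TPM, while the share of all genes went from 37.4% to 43.8%. The 5 past 4-fold were 3 with a pseudocount of 5 and 1 under the 8-fold rule. The median of the G1/S regulators over that of all genes, 1.05, was 0.67 with a pseudocount of 5 and 1.35 at FPKM 5 or more. For Cloudman S91 minus 4T1, the 14 genes past 2-fold were 8 in TPM and 8 in TPM without the 50 most abundant genes. The share of all genes past 2-fold was 40.6% in FPKM, and 45.1% and 46.6% in these settings. The 5 past 4-fold in Cloudman S91 minus 4T1 were 2 with a pseudocount of 5 and 2 under the 8-fold rule. There, the replication median over that of all genes, -0.37, was -0.18 without genes of differing length, and the mitosis median, -0.36, was -0.46 with no filter. A larger pseudocount shrinks low genes and the 8-fold rule is stricter by construction; for the other moves the cause was not tested. In every alternative run, the median of the 54 genes over that of all genes lay between 0.67 and 0.85 for B16-F1 minus Cloudman S91. It lay between 0.37 and 0.44 for B16-F1 minus 4T1 and between -0.41 and -0.28 for Cloudman S91 minus 4T1. Scaling between libraries shifts both medians nearly alike, so the scaling alternatives could barely move these values. Without the subtraction, the Cloudman S91 minus 4T1 medians did move with scaling. For replication genes the median was -0.50 in FPKM and -0.11 in TPM, and for mitosis genes -0.50 and -0.10. Depth limits Cdk6 in Cloudman S91, which rests on 8 counts.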
